A study of Homo sapiens with 60 samples.

Results

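The 8 genes described here are SCG2, SCG5, VGF and CHGB of the regulated secretory pathway, the secreted neuronal pentraxins NPTX1 and NPTX2, the membrane protein gene TMEM132B, and VAT1L. They were selected by symbol from 60675 genes in the expected-count table of SW1783, a human astrocytoma cell line, with earlier results of these data in view, namely their levels and changes in the drug and high-dose extract groups. All their values are therefore descriptions, printed with a standard error or an interval and with no p-value. In GRCh38 with GENCODE 29, SCG2 (ENSG00000171951) lies at chr2:223596940-223602503, SCG5 (ENSG00000166922) at chr15:32641676-32697098, VGF (ENSG00000128564) at chr7:101162509-101165593 and CHGB (ENSG00000089199) at chr20:5911430-5925361. NPTX1 (ENSG00000171246) lies at chr17:80467148-80477843, NPTX2 (ENSG00000106236) at chr7:98617297-98629868, TMEM132B (ENSG00000139364) at chr12:125186836-125662377 and VAT1L (ENSG00000171724) at chr16:77788530-77980107. All 8 were among the 17919 genes that passed the filter on low counts. CHGB passed it with at least 10 counts in only 15 of 60 libraries, and VGF reached 10 counts in 53.

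RNA from SW1783 cells was sequenced after 24 h of treatment with water extracts of 6 medicinal materials, with 3 drugs or with vehicle. The vehicle group (3 libraries) received DMSO, at 0.1% per the sample labels and 2% per the series text. No DMSO percentage was recorded here for the drug or extract libraries. Wortmannin and LY294002, which inhibit PI3K enzymes, and thioridazine, a phenothiazine antipsychotic, were each given at 10 µM (3 libraries each). The extracts of Poria Cocos (poria), Atractylodis Rhizoma (atractylodes), Glycyrrhizae Radix (licorice), Panax Ginseng (ginseng), Angelicae Gigantis Radix (angelica) and Paeoniae Radix (peony) were given at 20, 100 and 500 µg/mL, called the low, medium and high dose. Each dose had 3 libraries for poria, atractylodes, licorice and ginseng, and 2 for angelica and peony, which makes 60 libraries in 22 groups. No source used here tells whether replicates were separate cultures, and the p-values therefore cover only the spread among these libraries, which may be technical. In the sample codes, vehicle, drugs, poria with atractylodes, licorice with ginseng, and angelica with peony form separate sets. The set and the treatment cannot be told apart in a comparison with vehicle, whereas the doses of an extract share a set.

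Granins such as SCG2, VGF and CHGB are packed into dense-core vesicles, from which neurons and endocrine cells release peptides on stimulation. SCG5 is a chaperone of this pathway that binds the prohormone convertase PCSK2. Neuronal pentraxins are secreted proteins that cluster AMPA receptors at synapses. TMEM132B is a single-pass membrane protein, and VAT1L is a homolog of VAT1, a protein found on synaptic vesicle membranes.

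Upstream sequence is shown for SCG5 and VAT1L, which differed between treatments in different ways, and for VGF, in which each group overlapped the next in the order of levels. The RefSeq promoter table (GRCh38.p14) held 5 of the 8 genes, namely NPTX2, VGF, TMEM132B, SCG5 and VAT1L. Each stretch ends before the gene's start in both RefSeq and GENCODE 29, reads 5′ to 3′ on the gene's strand, and has in capitals any match to the cAMP response element TGACGTCA or the GC box GGGCGG, on both strands, with overlapping matches counted apart. The SCG5 stretch is chr15:32641460-32641675 on the plus strand, that of VAT1L chr16:77788314-77788529 on the plus strand, and that of VGF chr7:101165594-101165819 on the minus strand.
SCG5: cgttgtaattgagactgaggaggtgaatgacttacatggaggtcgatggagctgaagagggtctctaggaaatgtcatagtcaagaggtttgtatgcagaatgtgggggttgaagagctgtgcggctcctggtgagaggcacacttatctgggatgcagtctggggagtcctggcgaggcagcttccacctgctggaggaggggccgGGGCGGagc
VAT1L: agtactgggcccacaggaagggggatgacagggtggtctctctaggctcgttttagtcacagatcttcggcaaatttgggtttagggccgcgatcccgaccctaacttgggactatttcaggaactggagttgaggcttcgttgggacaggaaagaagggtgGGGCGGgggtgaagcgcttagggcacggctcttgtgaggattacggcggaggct
VGF: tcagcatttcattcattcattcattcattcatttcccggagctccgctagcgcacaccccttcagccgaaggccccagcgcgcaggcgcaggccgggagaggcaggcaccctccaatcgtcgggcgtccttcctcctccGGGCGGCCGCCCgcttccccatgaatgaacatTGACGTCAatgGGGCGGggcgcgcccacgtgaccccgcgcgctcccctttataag
TGACGTCA matched in VGF, 79 bases before the RefSeq start, and in none of the other promoter windows of the 8 genes. Among 35116 RefSeq windows of 300 bases it was in 1.85%. The GC box matched once in SCG5, once in VAT1L and at 3 places in the VGF stretch, against a share of 45% of all windows with at least 1 match. These matches are letters in a window and say nothing of what binds there.

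SW1783 libraries carried part of the astroglial, neuron and neuroendocrine marker lists. GFAP, AQP4, S100B and ALDH1L1 had medians under 0.1 CPM over the 60 libraries (CPM, a gene's count as a share of the TMM-scaled library total), while VIM, CD44, GJA1 and SOX9 of the same astroglial list had medians of 5393, 2624, 243 and 76 CPM. Of 14 neuron markers, GAP43, ELAVL3, ELAVL4, DCX, INA, NEFM and NEFH had medians under 0.1 CPM, whereas TUBB3 had a median of 118 CPM. The neuroendocrine markers CHGA, INSM1 and NEUROD1 also had medians under 0.1 CPM, whereas NCAM1 and SYP of that list had medians of 30.9 and 0.967 CPM. Means over the 60 libraries were under 0.1 CPM for 3 of 5 genes of the oligodendrocyte list and 3 of 5 of the microglia and blood list. In the endothelial list this held for 1 of 4, CDH5. The sums of these lists were 5.12 to 11.1, 6.9 to 14.7 and 1.5 to 4.82 CPM over the 60 libraries. The summed neuron markers ranged from 138 to 140 CPM in vehicle, 153 to 162 in wortmannin, 168 to 176 in LY294002, 114 to 120 in thioridazine and 75.4 to 80.1 in licorice high. TUBB3 made up most of that sum, with a mean of 119 CPM in vehicle and 56.3 in licorice high, while others went another way. MAP2 was at 5.65 CPM in vehicle and 7.81 in licorice high, NEFL at 7.52 and 8.08. With wortmannin SYN1 was at 9.74 CPM (4.8 in vehicle) and NEFL at 4.93.

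Other marker sums also differed between groups. The oligodendrocyte sum was 5.24 to 5.71 CPM in vehicle, 9.28 to 11.1 in thioridazine and 7.91 to 9.74 in peony high. The microglia and blood sum was 10.6 to 12.2 CPM in vehicle, 6.9 to 7.56 in thioridazine and 6.98 to 8.27 in licorice high. The astroglial sum was 8900 to 9293 CPM in vehicle, 6585 to 6790 in thioridazine, 7105 to 7431 in licorice high and 7069 to 7834 in peony high. The neuroendocrine sum was 31.7 to 35 CPM in vehicle, 36.1 to 36.6 in thioridazine and 35.7 to 37.1 in licorice high. NCAM1 made up most of it, with means of 32.3, 35.5 and 35.7 CPM in these groups. The part of all these markers in the results was not tested. In these bulk libraries, fewer cells of a type and less RNA per cell cannot be told apart. Total counts per library ran from 19.45 to 30.87 M counts.

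One library stood apart in these markers. Over 23 markers near 0 in most libraries, peony high replicate 1 held 10.7 CPM in sum, from 221 counts, and peony high replicate 2 held 1.01 CPM. The other 58 libraries ranged from 0.322 to 1 CPM. ALDH1L1 had 27 counts, GFAP 26, AQP4 21, NEUROD1 12, ELAVL4 11 and DCX 10 in peony high replicate 1. Their part in the peony results was not tested, and the main values of peony high are given with and without that library.

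**Figure D1:**
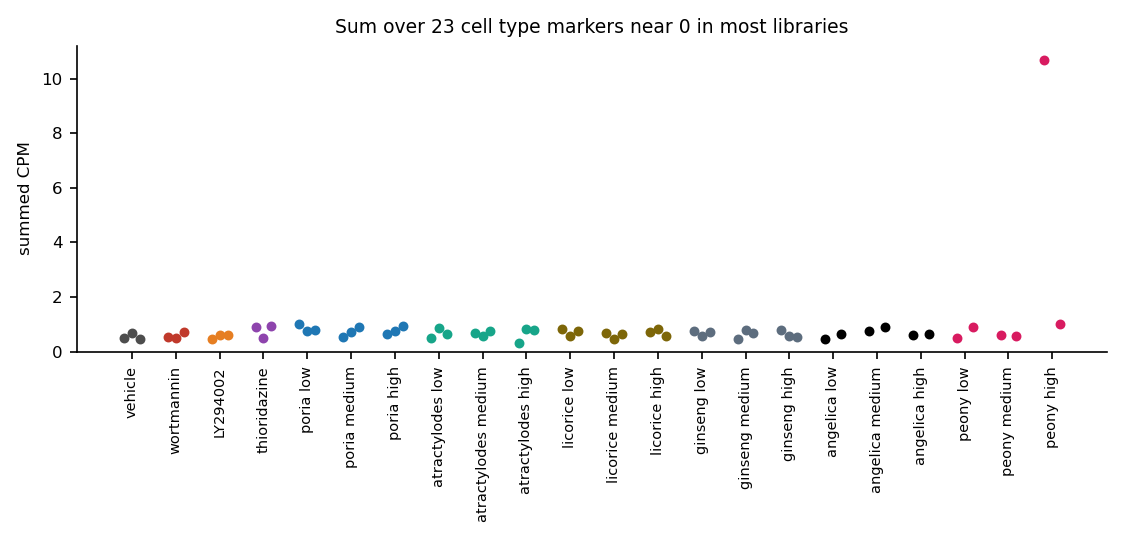
Summed CPM (y axis) of 23 cell type markers that are near 0 in most libraries, by treatment group (x axis), with 1 point per library. Peony high replicate 1 sits at 10.7 CPM, and peony high replicate 2 and the 58 libraries of other groups sit at 1.01 CPM or lower.

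Per kilobase of exon, the 8 genes covered a wide range of levels in vehicle. NPTX2, SCG2 and SCG5 were at 3.65, 3.02 and 2.41 CPM per kilobase, VAT1L at 0.843 and NPTX1 at 0.677. VGF, TMEM132B and CHGB were at 0.203, 0.101 and 0.0896 CPM per kilobase. All levels below are in CPM and are compared within a gene. Across the 22 groups, the highest group mean was 8.16 times the lowest for NPTX1, 6.68 times for TMEM132B, 4.29 times for SCG5, 3.33 times for VAT1L, 2.55 times for SCG2 and 1.99 times for NPTX2.

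**Figure D2:**
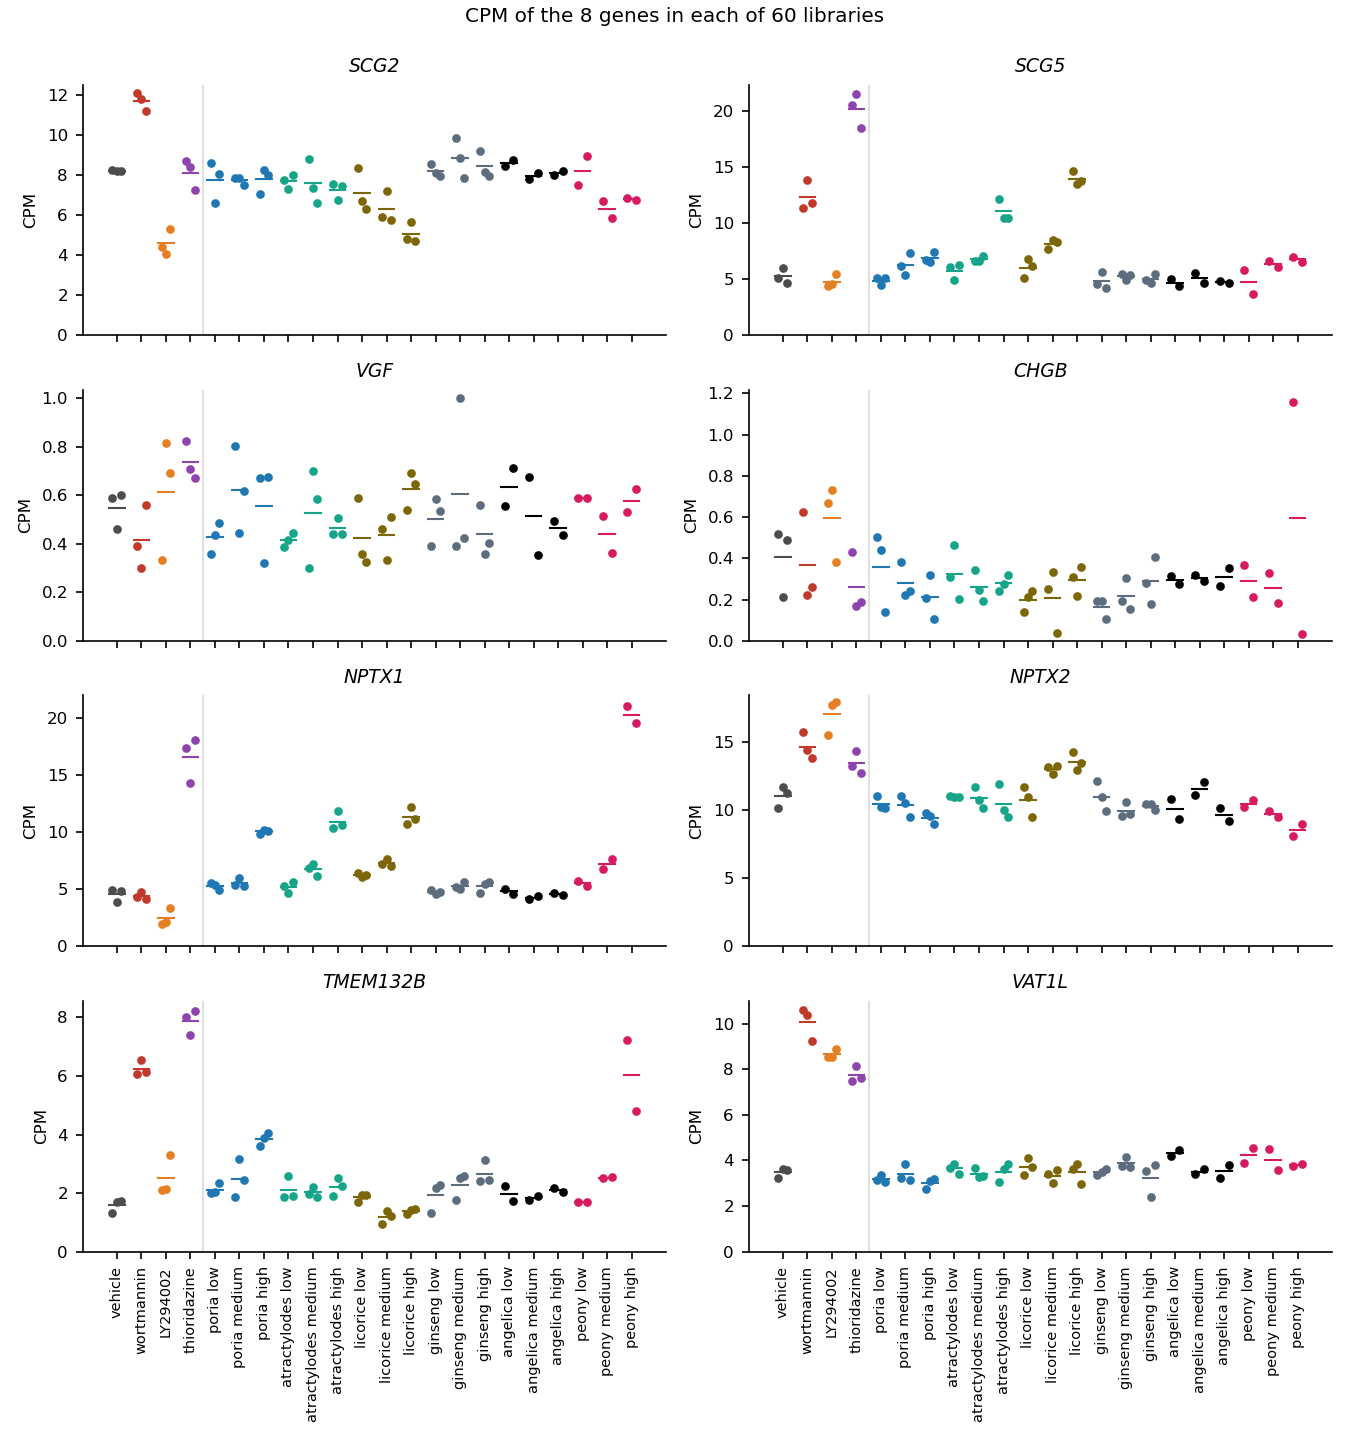
CPM (y axis, linear, from 0) of each gene in every library, by treatment group (x axis), with 1 point per library and a bar at the group mean. SCG5 is highest in thioridazine, followed by licorice high, wortmannin and atractylodes high. NPTX1 is highest in peony high, followed by thioridazine and by licorice, atractylodes and poria high. VAT1L is higher in the 3 drug groups than in all others, and CHGB in peony high is split between 1.16 and 0.0347 CPM.

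Levels of these genes were first compared between the drug groups and vehicle, which belong to separate sets of sample codes. Relative to vehicle, 5 of the 8 genes were past an adjusted p of 0.05 upward in wortmannin (15.4% of all genes tested were) and 0 downward (16.4% of all genes). For LY294002 the counts were 3 upward (19.4% of all genes) and 2 downward (19.9%). For thioridazine they were 5 upward (24.6%) and 0 downward (23.8%). Between wortmannin and LY294002, 4 genes were higher with wortmannin (8.79% of all genes) and 1 was lower (7.57%). These counts come from the quasi-likelihood test of edgeR, adjusted by Benjamini-Hochberg over all 17919 genes. The 8 genes were chosen with the drug groups in view, so the counts are descriptions and no test of the 8 genes as a set.

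SCG2, the precursor of secretoneurin, had opposite positions with the inhibitors. Vehicle libraries had 8.23, 8.21 and 8.18 CPM, wortmannin libraries 12.1, 11.8 and 11.2 CPM, and LY294002 libraries 4.43, 4.04 and 5.29 CPM. All wortmannin libraries lay above, and all LY294002 libraries below, every vehicle library. The log2 fold change was 0.51 ± 0.10 (SE) for wortmannin, -0.83 ± 0.11 for LY294002 and 1.34 ± 0.11 for wortmannin against LY294002. Thioridazine libraries, at 8.67, 8.4 and 7.24 CPM, overlapped vehicle. In the order of the 22 group means, wortmannin was the highest, without overlap with ginseng medium (8.83 CPM) behind it. The lowest groups were LY294002 at 4.59 and licorice high at 5.04 CPM, which overlapped each other. From ginseng medium down to peony medium, all neighbours in the order overlapped.

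SCG5 was at 5.15, 6.02 and 4.69 CPM in vehicle. Thioridazine libraries had 20.6, 21.5 and 18.5 CPM, wortmannin libraries 11.4, 13.9 and 11.8 CPM, and LY294002 libraries 4.39, 4.55 and 5.44 CPM. Thioridazine and wortmannin lay wholly above vehicle, and LY294002 overlapped it. Against vehicle the log2 fold change was 1.93 ± 0.11 for thioridazine, 1.22 ± 0.12 for wortmannin and -0.14 ± 0.13 for LY294002. Wortmannin against LY294002 gave 1.36 ± 0.12. Thioridazine ranked first of the 22 groups without overlapping licorice high, the next at 14 CPM. Licorice high overlapped wortmannin, and wortmannin overlapped atractylodes high.

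VGF, a granin-family protein known as a neurotrophin-induced gene, and CHGB, chromogranin B, were near the detection limit. VGF ranged from 0.298 to 0.999 CPM over the 60 libraries, which is 7 to 23 counts. CHGB ranged from 0.0347 to 1.16 CPM, which is 1 to 24 counts. In both genes every group overlapped the next one in the order of means. Against vehicle itself (0.588, 0.46 and 0.6 CPM), all VGF libraries of thioridazine lay above (0.824, 0.71 and 0.672) and all of atractylodes low lay below (0.388, 0.417 and 0.443). For CHGB, ginseng low (0.195, 0.195 and 0.107 CPM) lay wholly below vehicle (0.519, 0.212 and 0.488). The log2 fold change of VGF with thioridazine was 0.42, with a 95% interval from -0.21 to 1.05, and that of CHGB with LY294002 was 0.53, with an interval from -0.47 to 1.53.

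NPTX1 was at 4.95, 3.86 and 4.8 CPM in vehicle, and at 17.3, 14.3 and 18 CPM in thioridazine. LY294002 libraries had 1.97, 2.15 and 3.34 CPM, and wortmannin libraries 4.28, 4.77 and 4.09 CPM. Thioridazine lay wholly above vehicle, LY294002 wholly below it, and wortmannin overlapped it. Relative to vehicle the log2 fold change was 1.87 ± 0.10 for thioridazine, -0.86 ± 0.13 for LY294002 and -0.05 ± 0.11 for wortmannin. LY294002 had the lowest mean of the 22 groups (2.48 CPM), without overlap with angelica medium above it.

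NPTX2, the activity-regulated neuronal pentraxin, had another pattern. Vehicle libraries had 10.1, 11.7 and 11.2 CPM, LY294002 libraries 15.5, 17.7 and 17.9 CPM, and wortmannin libraries 15.7, 14.4 and 13.8 CPM. Thioridazine libraries had 13.2, 14.3 and 12.7 CPM. All 3 drug groups lay above vehicle without overlap, with log2 fold changes of 0.63 ± 0.08 for LY294002, 0.41 ± 0.08 for wortmannin and 0.28 ± 0.08 for thioridazine. With LY294002, NPTX2 was thus higher and NPTX1 lower than in vehicle. Wortmannin libraries overlapped both LY294002 and thioridazine libraries.

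TMEM132B was low in vehicle, at 1.31, 1.7 and 1.73 CPM. It was at 8.02, 7.39 and 8.21 CPM in thioridazine, 6.07, 6.53 and 6.14 in wortmannin and 2.09, 2.15 and 3.3 in LY294002. No drug library overlapped vehicle. On the log2 scale the difference from vehicle was 2.32 ± 0.17 for thioridazine, 1.98 ± 0.17 for wortmannin and 0.68 ± 0.19 for LY294002. All extract groups except the licorice groups, ginseng low and peony low also lay wholly above vehicle. LY294002, with a mean of 2.51 CPM, overlapped peony medium (2.52) and poria medium (2.49). TMEM132B was 2.47-fold higher with wortmannin than with LY294002, with a 95% interval of 0.98 to 1.63 on the log2 scale.

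VAT1L was higher in each of the 3 drug groups than in any other group. Vehicle libraries had 3.25, 3.61 and 3.6 CPM, wortmannin libraries 10.6, 10.4 and 9.22, LY294002 libraries 8.53, 8.55 and 8.89, and thioridazine libraries 7.49, 8.15 and 7.61 CPM. None of these 4 groups overlapped another. Relative to vehicle the log2 fold change was 1.53 ± 0.11 for wortmannin, 1.31 ± 0.11 for LY294002 and 1.15 ± 0.11 for thioridazine. The 18 extract groups had means of 3.02 to 4.34 CPM.

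**Figure D3:**
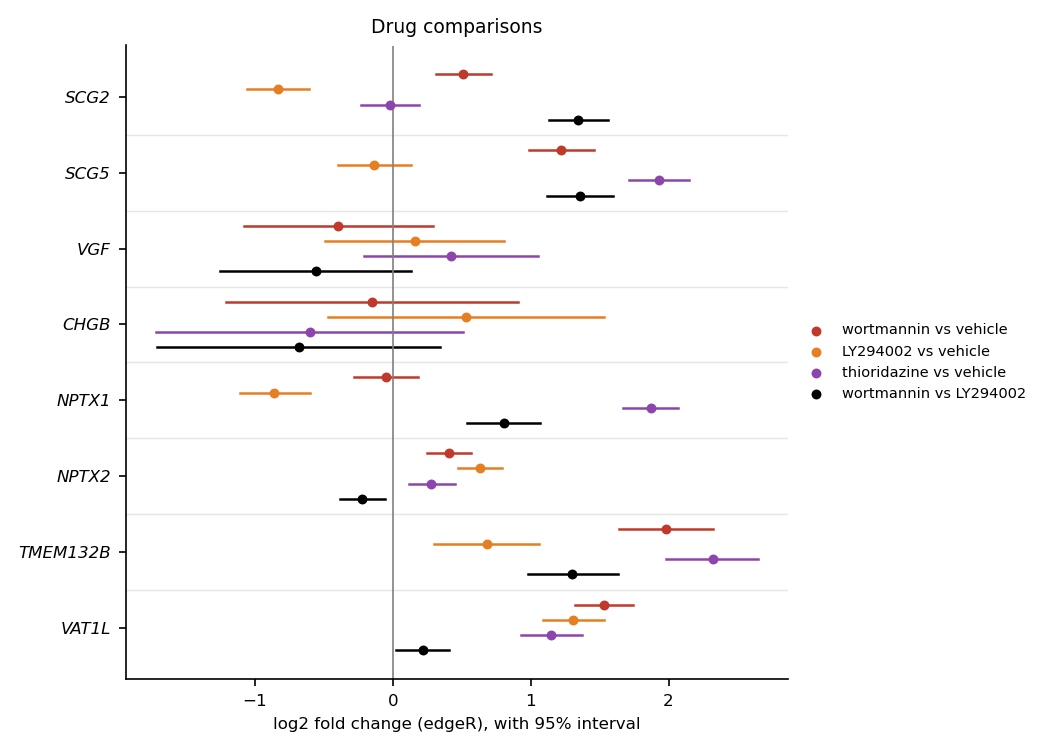
Log2 fold change (x axis) of each gene (y axis) for the 3 drugs against vehicle and for wortmannin against LY294002, with points for the estimate and lines for the 95% interval. For SCG2 wortmannin and LY294002 lie on opposite sides of 0 (0.51 and -0.83), and for VAT1L all 3 drugs lie above 1.

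At the high extract dose against vehicle, the genes past the same threshold were 3 of 8 for poria (11.6% of all genes tested, in either direction), 2 for atractylodes (13.9%), 4 for licorice (30.9%), 1 for ginseng (7.25%), 0 for angelica (6.46%) and 3 for peony (20.7%). Without peony high replicate 1, NPTX2 was no longer past it (-0.29 ± 0.12, against -0.36 ± 0.10 with both libraries) and CHGB was (-3.38 ± 1.02, against 0.42 ± 0.57). Against vehicle the log2 fold change of NPTX1 was 2.16 ± 0.11 for peony high (2.11 ± 0.12 without replicate 1), 1.32 ± 0.10 for licorice high, 1.27 ± 0.10 for atractylodes high and 1.15 ± 0.10 for poria high. That of SCG5 was 1.40 ± 0.11 for licorice high and 1.06 ± 0.12 for atractylodes high. All these comparisons share the same 3 vehicle libraries. The genes were chosen with these comparisons in view, so the counts are descriptions and no test of the 8 genes as a set.

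Comparing high with low dose within an extract uses no vehicle or drug library, but it reuses the high-dose libraries that were in view when the genes were chosen. Between the low and the high dose, 3 of the 8 genes were past the threshold with poria, all upward (SCG5, NPTX1 and TMEM132B; 5.51% of all genes in either direction), and 2 with atractylodes, both upward (SCG5 and NPTX1; 4.10%). With licorice they were SCG5, NPTX1 and NPTX2 upward and SCG2 downward (18.2% of all genes), and with peony NPTX1 and TMEM132B, both upward (5.90%). With ginseng (0.653% of all genes) and angelica (0.943%), 0 of the 8 genes were past it in edgeR. At an unadjusted p under 0.05 there were 1 for ginseng (TMEM132B) and 1 for angelica (VAT1L). DESeq2 called 0 of the 5 genes to which it gave an adjusted p for ginseng, and it gave none for angelica. A value that misses the threshold does not show that a gene was the same at both doses. NPTX1 with poria and peony, and TMEM132B with peony, were among the largest changes of those high doses against vehicle. The counts that include them are therefore no support.

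SCG5 was higher at each further dose of 2 extracts. In licorice it was at 5.08, 6.86 and 6.17 CPM at the low dose, 7.68, 8.55 and 8.3 at the medium dose and 14.7, 13.5 and 13.8 at the high dose. In atractylodes the libraries had 6.09, 4.91 and 6.24, then 6.67, 6.65 and 7.09, then 12.2, 10.5 and 10.5 CPM. No library of one dose overlapped the next dose in either extract. From low to high the log2 fold change was 1.21 ± 0.11 for licorice and 0.94 ± 0.12 for atractylodes. For poria the change was 0.50 ± 0.13, and it was 0.44 ± 0.14 and no longer past the threshold without poria low replicate 2 or without poria high replicate 3.

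For peony the change of SCG5 was 0.49 ± 0.16, short of the threshold. Its libraries had 5.86 and 3.71 CPM at the low dose and 7.04 and 6.52 at the high dose. Leaving out 1 library at a time gave changes from 0.21 to 0.86, the highest without peony low replicate 1, and without peony high replicate 1 the change was 0.43 ± 0.19. It was past the threshold without peony low replicate 1, without peony high replicate 2, with RLE size factors and without the filter. With ginseng and angelica the SCG5 changes were 0.05 and 0.01, with 95% intervals of -0.21 to 0.31 and -0.31 to 0.34.

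NPTX1 was at 5.23, 4.63 and 5.6 CPM at the low dose of atractylodes and at 10.3, 11.8 and 10.6 at the high dose. With licorice it was at 6.39, 6.08 and 6.25 CPM at the low dose and 10.7, 12.2 and 11.1 at the high dose. In both extracts the medium dose lay between them without overlap, at 6.85, 7.23 and 6.16 CPM for atractylodes and 7.15, 7.64 and 7.03 for licorice. The log2 fold change was 1.08 ± 0.10 for atractylodes and 0.86 ± 0.10 for licorice.

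In poria and peony NPTX1 stood out at the high dose. Poria low, medium and high libraries had 5.51, 5.34 and 4.93, then 5.34, 5.95 and 5.26, then 9.83, 10.2 and 10.1 CPM. Low and medium overlapped, and high lay above both. Peony libraries had 5.67 and 5.31 CPM at the low dose, 6.72 and 7.62 at the medium dose and 21 and 19.5 at the high dose, the highest mean of the 22 groups. The log2 difference of high from low dose was 0.93 ± 0.10 for poria and 1.88 ± 0.12 for peony. Without peony high replicate 1, the library that stood apart, the peony change was 1.83 ± 0.14. With ginseng and angelica the changes of NPTX1 were 0.15 ± 0.11 and -0.08 ± 0.14, neither past the threshold.

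SCG2 was lower with more licorice, at 8.32, 6.72 and 6.29 CPM at the low dose and 4.78, 5.63 and 4.72 CPM at the high dose. The medium dose, at 5.9, 7.22 and 5.75 CPM, overlapped the low and lay above the high dose. The log2 fold change was -0.51 ± 0.11. In the other 5 extracts the change of SCG2 ranged from -0.27 for peony (-0.28 without peony high replicate 1) to 0.04 for ginseng, and none was past the threshold.

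NPTX2 had 11.7, 10.9 and 9.44 CPM at the low dose of licorice, 13.1, 12.6 and 13.2 at the medium and 14.2, 12.9 and 13.4 at the high dose. The log2 fold change from low to high was 0.33 ± 0.08, and high overlapped medium. In peony the NPTX2 change was -0.29 ± 0.11, and without peony high replicate 1 it was -0.22 ± 0.13, both short of the threshold. Without peony high replicate 2 it was -0.38 ± 0.14 and past it.

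TMEM132B was at 2, 2.03 and 2.33 CPM at the low dose of poria and 3.6, 3.87 and 4.06 CPM at the high dose, a log2 fold change of 0.86 ± 0.17. In peony it was at 1.69 and 1.68 CPM at the low dose, 2.5 and 2.54 at the medium and 7.24 and 4.82 at the high dose. The peony doses did not overlap, and the change from low to high was 1.81 ± 0.21, or 1.51 ± 0.24 without peony high replicate 1. In licorice the TMEM132B change was -0.42 ± 0.21, short of the threshold.

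VAT1L was past the threshold in none of the 6 dose comparisons, with changes from -0.30 ± 0.14 for angelica to -0.05 ± 0.12 for atractylodes. VGF and CHGB were not past it either. In peony high, CHGB had 24 counts (1.16 CPM) in replicate 1 and 1 count (0.0347 CPM) in replicate 2. Its change from peony low was 0.88 ± 0.67, became -2.92 ± 1.12 without replicate 1 and 1.95 ± 0.59 without replicate 2, which was past the threshold. Thus the direction of CHGB in peony high depended on 1 library.

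**Figure D4:**
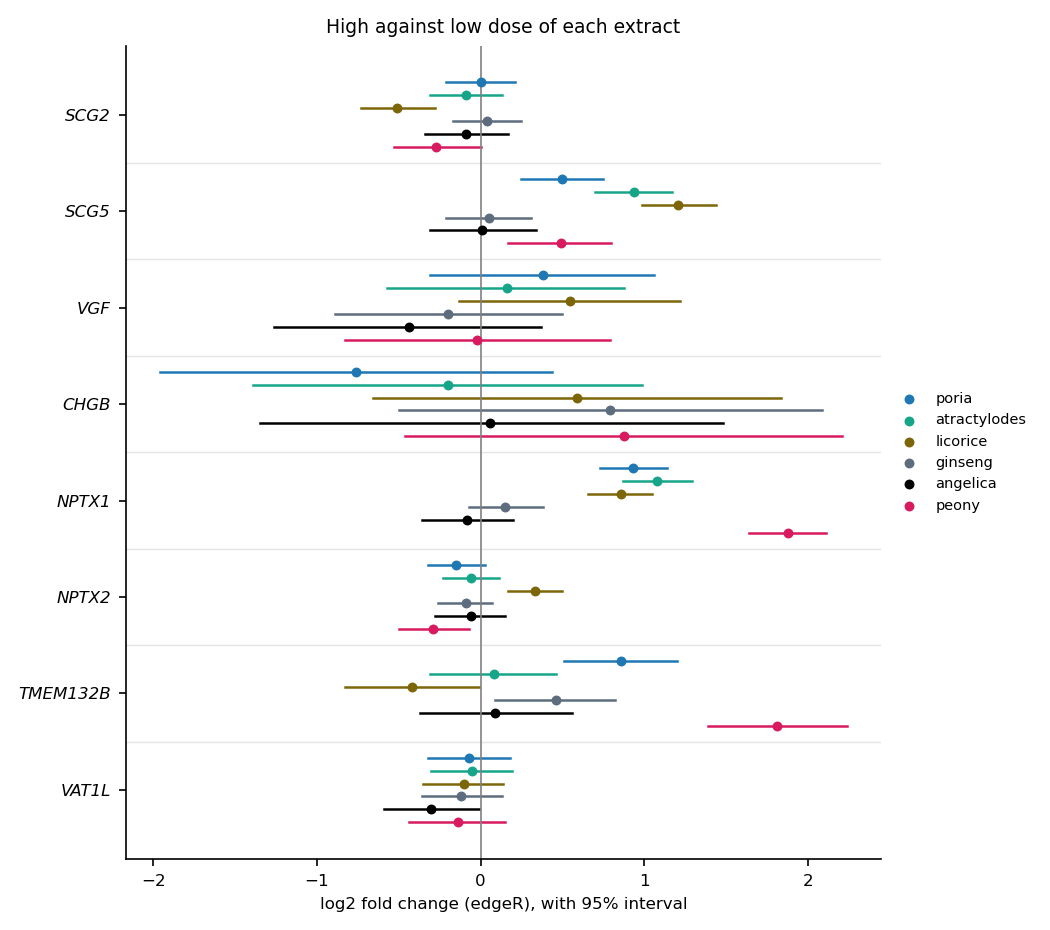
Log2 fold change from the low to the high dose (x axis) of each gene (y axis) for the 6 extracts, with points for the estimate and lines for the 95% interval. NPTX1 in peony lies farthest to the right (1.88), SCG2 in licorice lies at -0.51, and VAT1L lies between -0.30 and -0.05 in the 6 extracts.

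The number of all genes called with peony rested on single libraries. From low to high dose 1058 genes were called, 402 without peony high replicate 1 and 4081 without peony high replicate 2. Against vehicle 3710 were called with peony high, 1354 without its replicate 1 and 6326 without its replicate 2. In angelica 169 genes were called from low to high, 37 without angelica low replicate 2 and 847 without angelica low replicate 1. For atractylodes high against vehicle 2485 genes were called, and 905 without atractylodes high replicate 1. For angelica high against vehicle 1158 were called, and 264 without angelica high replicate 2.

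Dose effects were also compared directly between the extracts of a set, as the log2 change from low to high in one minus that in the other. This contrast was added after the data were seen. It too reuses the high-dose libraries and gives descriptions for the 8 genes. In licorice against ginseng, 5 of 8 genes were past an adjusted p of 0.05 in edgeR (13.4% of all genes were): SCG5 at 1.16 ± 0.17, NPTX1 at 0.70 ± 0.15, NPTX2 at 0.43 ± 0.12, SCG2 at -0.54 ± 0.15 and TMEM132B at -0.88 ± 0.28. SCG2 was short of the threshold without licorice low replicate 1, and TMEM132B without licorice high replicate 1, licorice low replicate 2 or 3, ginseng low replicate 1 or ginseng high replicate 2. DESeq2 was not run on these contrasts. Between atractylodes and poria, 0 of the 8 genes were past it (3.53% of all genes were in edgeR), SCG5 (0.44 ± 0.17) and TMEM132B (-0.78 ± 0.26) had an unadjusted p under 0.05, and the difference for NPTX1 was 0.15 ± 0.15. Between peony and angelica 2 of the 8 genes were past it (0.938% of all genes were), NPTX1 at 1.95 ± 0.18 and TMEM132B at 1.72 ± 0.32. Both genes were among the largest changes of peony high against vehicle, so this count is no support. Without peony high replicate 1 the NPTX1 and TMEM132B values were 1.91 ± 0.20 and 1.42 ± 0.33, and that of CHGB turned from 0.81 ± 0.97 to -2.98 ± 1.29.

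Over the 22 group means of log2 CPM the members did not follow a common pattern. The Pearson r was 0.70 for NPTX2 with VAT1L, 0.64 for NPTX1 with SCG5, 0.58 for TMEM132B with VAT1L, -0.04 for SCG2 with SCG5 and -0.30 for NPTX1 with NPTX2. These are descriptions over 22 groups that share sets and sequencing. Without peony high replicate 1 the same pairs, in that order, gave 0.71, 0.64, 0.60, -0.04 and -0.27. Among 13790 other genes, those most like SCG5 included MMP1 (r = 0.97), a collagenase, and NAMPT (0.94), an enzyme of NAD salvage. MMP1 was at 61.4 CPM in vehicle, 137 in thioridazine, 111 in wortmannin, 62.8 in LY294002 and 141 in licorice high. The genes most like NPTX1 were THBD (0.93), which encodes thrombomodulin, GREM1 (0.89), a BMP antagonist, and NUDT4 (0.86), whose counts are uncertain because it has a near-identical copy. Those most like SCG2 were HTR7 (0.81), a serotonin receptor, MDFIC (0.81) and RASA4 (0.80), and the counts of RASA4 are likewise uncertain because of close copies.

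The wider pathway was read from 6 lists of 129 genes in all, of which 98 passed the filter. With vehicle as reference, 34 of the 98 rose and 12 fell with wortmannin, 28 rose and 16 fell with LY294002, and 33 rose and 27 fell with thioridazine. Called in either direction were 46.9%, 44.9% and 61.2% of the listed genes, beside 31.7%, 39.3% and 48.4% of all genes. At the high extract dose against vehicle 23 rose and 24 fell with licorice, 12 and 13 with atractylodes, 10 and 11 with peony, 4 and 14 with poria, 5 and 6 with ginseng and 4 and 5 with angelica. These are 48% of the listed genes for licorice (30.9% of all genes), 25.5% for atractylodes (13.9%), 21.4% for peony (20.7%), 18.4% for poria (11.6%), 11.2% for ginseng (7.25%) and 9.18% for angelica (6.46%). With both peony high libraries, the share for peony was thus near that of all genes. The peony counts of these lists include peony high replicate 1, the library that stood apart. Between wortmannin and LY294002, 17 were higher with wortmannin and 9 lower, 26.5% beside 16.4% of all genes. From low to high dose, 19 rose and 16 fell with licorice, 7 rose and 4 fell with atractylodes, 2 rose and 5 fell with poria, 5 rose and 2 fell with peony, and 1 fell with each of ginseng and angelica. The shares were 35.7% for licorice (18.2% of all genes), 11.2% for atractylodes (4.10%), 7.14% for poria (5.51%), 7.14% for peony (5.90%), and 1.02% for each of ginseng (0.653%) and angelica (0.943%). As above, the peony counts include peony high replicate 1.

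Of the 10 relatives of the members, 5 were measured, and CHGA, SCG3, TMEM132C, TMEM132D and TMEM132E did not pass the filter. PTX3, a long pentraxin of inflammation, fell with the 3 drugs, by 0.58 ± 0.07 on the log2 scale with wortmannin, 0.71 ± 0.07 with LY294002 and 0.41 ± 0.07 with thioridazine. It rose by 0.99 ± 0.06 from low to high licorice and by 0.92 ± 0.07 with atractylodes, and fell by 0.32 ± 0.07 with poria (edgeR adjusted p = 1.07e-18, 2.68e-16 and 0.00191). NPTXR, the membrane-bound pentraxin receptor, rose with all 3 drugs, by 0.34 ± 0.05, 0.45 ± 0.05 and 0.55 ± 0.05 in the same order, and fell by 0.38 ± 0.05 with the licorice dose and by 0.31 ± 0.05 with the atractylodes dose. PTX3 and NPTXR thus moved in opposite directions in the 3 drug comparisons and with both of these extracts. VAT1, the homolog of VAT1L, rose by 1.12 ± 0.05 with thioridazine, 0.25 ± 0.05 with wortmannin and 0.21 ± 0.05 with LY294002. PCSK1N, an inhibitor of PCSK1, rose with wortmannin (0.31 ± 0.10) and LY294002 (0.35 ± 0.10). TMEM132A rose by 0.30 ± 0.05 with wortmannin, 0.30 ± 0.05 with LY294002 and 0.15 ± 0.05 with thioridazine.

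Among 14 measured genes of prohormone processing, 7 rose and 2 fell with wortmannin, 5 rose and 3 fell with LY294002, and 8 rose and 2 fell with thioridazine. These are 64.3%, 57.1% and 71.4% of the list, beside 31.7%, 39.3% and 48.4% of all genes. The median log2 fold changes were 0.24, 0.19 and 0.23, beside 0.02 over all genes in each comparison. PCSK1, a prohormone convertase, was at 3.75 ± 0.0804 CPM (SD, n = 3) in vehicle and 9.61 ± 0.738 in thioridazine, a log2 fold change of 1.36 ± 0.12 (edgeR adjusted p = 9.17e-15). PAM, which amidates peptides, rose with wortmannin by 0.35 ± 0.03 and with LY294002 by 0.26 ± 0.03, and the protease gene PCSK7 fell with all 3 drugs, by 0.58 ± 0.04 with thioridazine. PCSK2, the partner of SCG5, did not pass the filter, with at most 21 counts in a library.

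Of 28 measured genes of dense-core vesicle formation and release, 12 rose and 3 fell with wortmannin, 8 rose and 2 fell with LY294002, and 11 rose and 7 fell with thioridazine. The shares were 53.6%, 35.7% and 64.3%, of which that for LY294002 was below the 39.3% of all genes. SNAP25, a vesicle fusion protein, rose from 20.4 ± 0.9 to 34.4 ± 1.81 CPM with wortmannin (log2 0.75 ± 0.06), and was higher with wortmannin than with LY294002 by 0.58 ± 0.06. RAB27B, a GTPase of vesicle docking, rose with wortmannin (0.45 ± 0.05) and thioridazine (1.02 ± 0.05), and was 0.51 ± 0.05 higher with wortmannin than with LY294002. The calcium sensor SYT1 (0.90 ± 0.06) and the vesicle protein SV2A (0.78 ± 0.05) rose with thioridazine. SYT11 rose with wortmannin (0.50 ± 0.05), LY294002 (0.58 ± 0.05) and the licorice dose (0.46 ± 0.05), and fell with the poria dose (-0.33 ± 0.06) and the angelica dose (-0.33 ± 0.07).

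Among 12 measured peptide and neurotrophin genes, 2 rose and 3 fell with wortmannin, 2 rose and 5 fell with LY294002, and 5 rose and 3 fell with thioridazine. The shares were 41.7%, 58.3% and 66.7%, beside 31.7%, 39.3% and 48.4% of all genes. From low to high dose 5 rose and 1 fell with licorice (50% of the list, 18.2% of all genes), and 4 rose and 0 fell with atractylodes (33.3%, beside 4.10%). The medians were 0.26 and 0.17, beside 0.00 and -0.00 over all genes. INHBA, an activin subunit, rose by 1.18 ± 0.06 with licorice and 0.98 ± 0.06 with atractylodes, and fell by 0.98 ± 0.07 with thioridazine. STC1, a stanniocalcin, rose by 0.70 ± 0.05 with wortmannin and 0.60 ± 0.05 with thioridazine, and was 0.75 ± 0.05 higher with wortmannin than with LY294002. BDNF fell by 0.36 ± 0.05 with LY294002 and 0.68 ± 0.05 with thioridazine.

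The repressor REST holds neuronal genes silent in other cells. Of the 15 genes of its complex, all measured, 3 rose and 2 fell with wortmannin, 4 rose and 2 fell with LY294002, and 2 rose and 6 fell with thioridazine. These shares, 33.3%, 40% and 53.3%, were near those of all genes (31.7%, 39.3% and 48.4%). REST itself rose with wortmannin by 0.43 ± 0.06 and with LY294002 by 0.33 ± 0.07. KDM1A, a histone demethylase of the complex, fell with thioridazine by 0.39 ± 0.03, with wortmannin by 0.21 ± 0.03 and with LY294002 by 0.15 ± 0.03. From low to high licorice 0 rose and 3 fell, 20% beside 18.2% of all genes, among them CTDSP1 by 0.18 ± 0.05.

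The last list holds 24 genes of the response to activity or cAMP, among them the regulators CREB1, CRTC1, CRTC2 and CRTC3. Of the 24, 6 rose and 1 fell with wortmannin, 5 rose and 3 fell with LY294002, and 4 rose and 8 fell with thioridazine. The shares, 29.2%, 33.3% and 50%, were below or near those of all genes (31.7%, 39.3% and 48.4%). SIK1, a kinase induced by cAMP whose counts are uncertain because of a near-identical copy, fell by 1.12 ± 0.10 with wortmannin and 0.80 ± 0.10 with LY294002, and rose by 1.06 ± 0.09 with thioridazine and 0.81 ± 0.09 with the licorice dose. It fell by 0.52 ± 0.10 with the poria dose and by 0.49 ± 0.10 with the ginseng dose. Against vehicle SIK1 was also lower with ginseng high (-0.87 ± 0.10), poria high (-0.78 ± 0.10) and angelica high (-0.69 ± 0.11). For peony high the change was -0.49 ± 0.11, and -0.40 ± 0.13 without peony high replicate 1. Licorice high, at 29.3 CPM, was above vehicle (17.7 CPM). PPARGC1A, a transcriptional coactivator, was at 1.05 ± 0.172 CPM in vehicle and 4.81 ± 0.384 in thioridazine, a log2 fold change of 2.19 ± 0.26. From low to high dose, EGR3 fell by 0.83 ± 0.14 with atractylodes and EGR1 rose by 0.78 ± 0.20 with peony (0.85 ± 0.24 without peony high replicate 1).

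**Figure D5:**
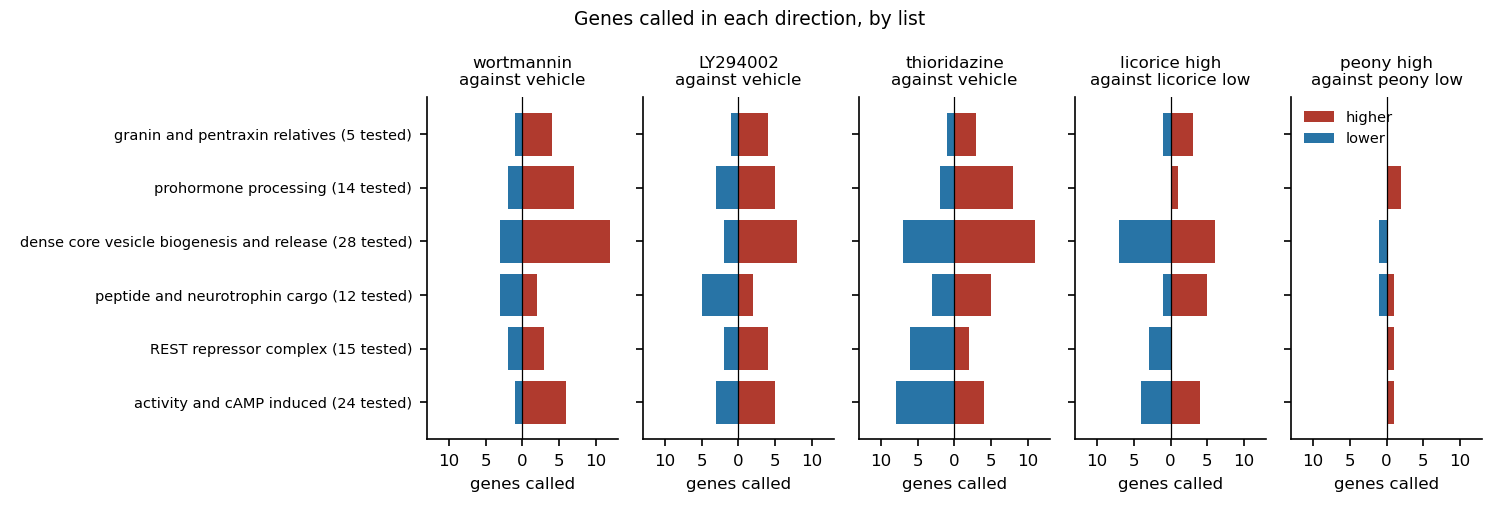
Number of genes called higher (right of 0) and lower (left of 0) on the x axis for each of 6 lists (y axis, with the number of genes tested), in 5 comparisons. The dense-core vesicle list has 12 genes higher and 3 lower with wortmannin. The list labelled activity and cAMP induced has 4 higher and 8 lower with thioridazine.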

How the data were processed

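RNA sequencing of SW1783 cells gave the expression data. The authors deposited expected counts per gene, not normalised between samples; the submitters' processing notes name Trim Galore 0.6.5, STAR 2.7.3a, RSEM 1.3.3 and the build GRCh38, and no source used here gives the strand setting. With a tolerance of 1e-06, 9.48% of values were not whole, and all were rounded. Of 279 columns, 60 belong to the given samples and 219 were not used here.

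Genes were kept by filterByExpr (minimum count 10, minimum total 15), scaled by TMM and tested with edgeR 4.0.16 (R 4.3.3), whose quasi-likelihood fit held all 60 libraries. Contrasts were tested two-sided with Benjamini-Hochberg adjustment over 17919 genes and called under 0.05. Dividing the absolute log2 fold change by the root of F gave its SE. The members, the lists and the rule for named genes were chosen with earlier results of these data known, so no list count is independent support. Named were the 8 members; for each of SCG2, SCG5 and NPTX1 the 3 genes of highest Pearson r over the 22 group means of log2 CPM (mean of at least 1 CPM, prior count 2); from each list up to 3 called genes of smallest p per drug comparison and up to 1 per other comparison; and the measured relatives. Some genes that this rule or the marker lists name are not reported here. PCSK2 and the relatives that did not pass the filter were named after their values were seen. No p is printed for a member, since libraries of every comparison were in view when the members were chosen.

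Alternatives were RLE size factors, no filter, a replicate block, the groups of a comparison alone, DESeq2 1.42.0, leaving out each library and leaving out 5 libraries that an earlier analysis of these data had found to stand apart. The pipeline was tested on simulated data. Same-numbered replicates showed little pairing, and the main model used none.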

Additional observations from a re-analysis of the deposited data

Results flagged for a closer look

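In 5 genes the log2 change from low to high dose in licorice minus that in ginseng was past an adjusted p of 0.05, by a contrast of the difference itself in edgeR's quasi-likelihood model over all 17919 genes. It was 1.16 for SCG5, 0.70 for NPTX1, 0.43 for NPTX2, -0.54 for SCG2 and -0.88 for TMEM132B. Of all genes, 13.4% were past the threshold in this contrast. The high-dose libraries were in view when the genes were chosen, so these values are a description and no independent test. Over single-library omissions the SCG5 difference stayed between 1.04 and 1.27, that of NPTX1 between 0.63 and 0.76 and that of NPTX2 between 0.35 and 0.50, all past the threshold. The SCG2 difference was -0.41 ± 0.16 without licorice low replicate 1 and no longer past it. The TMEM132B difference ranged from -1.02 to -0.67, and was no longer past it without licorice high replicate 1, licorice low replicate 2, licorice low replicate 3, ginseng low replicate 1 or ginseng high replicate 2.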

How the results depend on the processing

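Leaving out each library in turn moved the number of all genes called between these limits: wortmannin 4790 to 4939, LY294002 6017 to 6515, thioridazine 7855 to 8050 and wortmannin against LY294002 2008 to 2782. For the high dose against vehicle they were poria 1312 to 1536, atractylodes 905 to 2977, licorice 4361 to 4936, ginseng 623 to 859, angelica 264 to 815 and peony 1354 to 6326. For high against low they were poria 592 to 661, atractylodes 432 to 888, licorice 2483 to 2815, ginseng 58 to 80, angelica 37 to 847 and peony 402 to 4081. With the groups of a comparison fitted alone, counts against vehicle were 3583 for poria (2074 in the model of 60 libraries), 586 for atractylodes (2485), 2975 for ginseng (1300) and 2952 for angelica (1158), and from low to high 151 for atractylodes (734), 59 for ginseng (117), 6 for angelica (169) and 650 for peony (1058). Without 5 libraries that an earlier analysis of these data set aside, not chosen by the spread measured here (atractylodes high 1, ginseng low 1, licorice medium 3, angelica low 2 and peony high 1), counts against vehicle were 1481 for atractylodes, 2143 for ginseng, 2034 for angelica and 2061 for peony (3710), and from low to high 1546 for poria (988), 93 for angelica and 610 for peony. Without the filter 225 genes were called for the ginseng dose and 375 for the angelica dose, and DESeq2 called 313 for the angelica dose. The cause of these shifts was not tested.

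With a replicate block the counts were 5769 for wortmannin, 7120 for LY294002, 8745 for thioridazine and 3370 for the licorice dose, and it changed no call of the 8 genes. Same-numbered replicates deviated together little (r from -0.0671 to 0.225). The highest values were in atractylodes high against low, at 0.225 for replicate 1 and 0.108 for replicate 2. Of 874 values of the 8 genes from low to high dose or between the dose effects of 2 extracts, over all alternatives, 859 kept their side of the threshold, 9 were no longer past it and 6 were newly past it. Of the 874, 46 had another sign than with all libraries, 0 of them past the threshold there. Among these, 4 were at least 0.2 in size, all of CHGB in comparisons with peony high, as in the change from low to high dose of 0.88 that became -2.92 without peony high replicate 1. The TMEM132B difference between licorice and ginseng was -0.67 without the 5 libraries, no longer past the threshold. On plain library totals 5 of 176 group means of the 8 genes moved by more than 1 SD, by ratios of 0.971 to 1.06 over all 176. VGF had 7 to 23 and CHGB 1 to 24 counts a library, which limits their precision, and angelica and peony rest on 2 libraries a group.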
